A study of Mus musculus with 24 samples.

Results

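The genes described here are 7 markers of neural progenitors and neurons, Tubb3, Neurod1, Nes, Sox1, Hes5, Ncam1 and Gbx2. They were found by symbol among the 54242 rows of a table of RNA-seq values of mouse CGR8 embryonic stem cells (ESCs), and each symbol matched 1 row. The table holds 24 libraries in 8 groups of 3. ESCs were transfected with a pool of non-targeting siRNAs (si-CTL, labelled siControl) or with a pool of siRNAs against Rsl24d1 (si-Rsl24d1, labelled siRSL24D1), and were collected in serum and LIF (day 0, labelled ESC) or after 4 days of 10 nM retinoic acid (day 4 of RA, labelled DIF). Each of these 4 states was measured without rescue (nores) and with doxycycline-induced expression of an ectopic RSL24D1 protein (RESCUE). The labels name an empty vector for the cells without doxycycline and RSL24D1_OE for the rescued cells, so doxycycline, the vector and the ectopic protein cannot be told apart in a comparison of rescued with unrescued cells. All groups share the parental line, the serum and a transfection with siRNA, and no untransfected cells were analysed here. RSL24D1 is a protein that assembles with precursors of the large ribosomal subunit, and the comparisons ask how its depletion and RA alter the expression of these markers.

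In the embryo, Sox1 is a transcription factor that marks the neural plate, Nes encodes the intermediate filament nestin of dividing neural progenitors, and Hes5 encodes a repressor that Notch signalling switches on to hold progenitors back from differentiation. Neurod1 is a basic helix-loop-helix factor that drives neuronal differentiation, Tubb3 encodes the beta-tubulin isotype used as a marker of young neurons, and Ncam1 encodes a cell adhesion molecule of neural and other tissues. Gbx2 is a homeobox factor that positions the boundary of midbrain and hindbrain, and in ESCs it is also a target of LIF and Stat3 that sustains self-renewal. In the Notch pathway a cell that expresses proneural factors displays ligands such as Dll1, and the neighbouring cell responds through the factor RBPJ, which switches on Hes genes.

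Promoter sequences are shown for Neurod1, Hes5 and Gbx2, the 3 members that carry a searched motif. RefSeq (GRCm38.p6) gave a window of 300 bases, 250 before and 50 after the start site, for 6 of the 7 members, Ncam1 being the exception. The letters CANNTG, the E-box bound by basic helix-loop-helix factors, were searched on both strands, and 72.3% of 32851 promoters of the same length hold them. The letters GTGGGAA, which RBPJ can bind, are in 6.38% of those promoters, and TTCNNNGAA, a Stat-type repeat, is in 8.3% of them. The Neurod1 window (chr2:79456587-79456886, minus strand) holds 1 E-box in capitals, the Hes5 window (chr4:154960673-154960972, plus strand) holds 2 copies of the RBPJ letters in capitals, and the Gbx2 window (chr1:89931127-89931426, minus strand) holds 4 E-boxes in capitals.
Neurod1: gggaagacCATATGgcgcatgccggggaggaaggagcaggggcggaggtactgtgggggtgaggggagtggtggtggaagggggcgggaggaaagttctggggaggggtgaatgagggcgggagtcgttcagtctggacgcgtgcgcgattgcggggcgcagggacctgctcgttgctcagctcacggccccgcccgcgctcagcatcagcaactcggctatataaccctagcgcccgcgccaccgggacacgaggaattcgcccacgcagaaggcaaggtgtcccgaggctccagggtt
Hes5: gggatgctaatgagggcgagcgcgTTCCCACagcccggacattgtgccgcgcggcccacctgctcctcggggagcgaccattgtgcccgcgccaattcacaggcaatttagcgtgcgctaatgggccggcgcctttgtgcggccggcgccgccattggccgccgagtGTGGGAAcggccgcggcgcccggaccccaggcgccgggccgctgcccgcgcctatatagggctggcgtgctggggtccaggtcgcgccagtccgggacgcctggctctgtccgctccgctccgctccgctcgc
Gbx2: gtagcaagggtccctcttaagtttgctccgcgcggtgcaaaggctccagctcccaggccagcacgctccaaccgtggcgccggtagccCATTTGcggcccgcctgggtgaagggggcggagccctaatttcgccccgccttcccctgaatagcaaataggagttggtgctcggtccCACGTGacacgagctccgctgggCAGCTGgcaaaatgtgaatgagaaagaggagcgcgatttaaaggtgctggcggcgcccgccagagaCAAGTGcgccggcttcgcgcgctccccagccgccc
The Hes5 window also holds 1 E-box, and the windows of Tubb3, Nes and Sox1 hold none of the 3 motifs. A match is a string of letters and no evidence that a factor is bound there.

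In gencode vM21 (GRCm38) the members are protein-coding genes at chr8:123411424-123422015 (Tubb3), chr2:79452521-79456751 (Neurod1), chr3:87971078-87980451 (Nes), chr8:12395295-12400126 (Sox1), chr4:154960923-154962371 (Hes5), chr9:49502136-49798925 (Ncam1) and chr1:89927956-89931179 (Gbx2). Neurod1 lies within the span of Cerkl on the same strand, and reads from shared sequence could be assigned to either gene. Cerkl was at a mean log2(TPM + 1) of 0.84 in day 0 si-CTL cells and 1.38 in day 0 si-Rsl24d1 cells. With rescue these were 0.91 and 1.08. At day 4, where Neurod1 was lowest, the group means of Cerkl lay between 1.58 and 1.81. Gbx2 overlaps D130058E05Rik on the opposite strand, whose group means lay between 1.43 and 1.85, and the overlapping transcripts measured at Sox1, Hes5 and Ncam1 had group means of at most 0.09. Gm20388 at Tubb3 and Gm26755 at Neurod1 were not analysed here.

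The deposited unit is log2(TPM + 1), where TPM is a gene's share of transcripts per length, scaled to 1000000 in each library. The depth of the libraries is unknown, and precision rests on the 3 libraries of each group. The targeted gene was checked first. Rsl24d1 was at 148, 140 and 136 TPM in day 0 si-CTL cells and at 36.6, 37.9 and 32.7 TPM in day 0 si-Rsl24d1 cells, which is 25.3% of the control. With rescue, day 0 si-Rsl24d1 cells had 103, 96.1 and 121 TPM, against 158, 150 and 147 TPM in rescued day 0 si-CTL cells. That is 70.6% of the rescued control (difference -0.50, limma adjusted p = 2.2e-05). At day 4 the 2 unrescued groups overlapped, with 95.9 to 101 TPM in si-CTL cells and 89.3 to 99.8 TPM in si-Rsl24d1 cells (difference in log2(TPM + 1) of -0.04, limma adjusted p = 0.66), so a lower level of Rsl24d1 mRNA was not seen in the depleted cells at that time. The cells given si-Rsl24d1 are called depleted below at both days, after their siRNA. As a check on the cell type, the ESC factor Pou5f1 was at 1112 TPM in day 0 si-CTL cells and still at 519 TPM at day 4. The 30 listed neuronal cytoskeleton, RNA-binding and synapse genes summed to 507 to 511 TPM in day 0 si-CTL libraries and to 264 to 273 TPM at day 4, and none of them was at 0 in a whole group. Their levels ranged from Stmn2, a stathmin of growing neurites, at a mean of 141 TPM at day 0, down to Dcx, a marker of migrating neurons, at or below 0.074 TPM in every group. Transcripts of neuronal genes were thus present in ESC cultures before RA. Summed over the 13 listed genes of primitive endoderm, another cell type that ESC cultures can hold, the TPM were 72.1 to 87.5 in day 0 si-CTL libraries.

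Libraries also differed in the balance of long and short transcripts. As an index, the median deviation of 1768 protein-coding genes with a longest transcript of at least 6000 nt, minus that of 3628 genes under 2000 nt, was taken in each library. Its mean was -0.26 (range -0.30 to -0.19) in day 4 si-CTL cells and 0.14 (range -0.10 to 0.27) in day 4 si-Rsl24d1 cells, so these 2 groups did not overlap. Nes and Ncam1 have longest transcripts of 6126 and 6564 nt, and within groups their deviations correlated with the index at r = 0.96 and r = 0.91 over 24 libraries. The values were 0.54 for Tubb3, 0.48 for Sox1, 0.22 for Gbx2, 0.14 for Neurod1 and -0.28 for Hes5. These are descriptions, since genes of a library share its depth and normalisation, and Nes and Ncam1 are themselves among the long genes. Most results on Nes and some on Ncam1 are given below also with the index as a covariate. This alternative was chosen after the data had been seen.

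**Figure D1:**
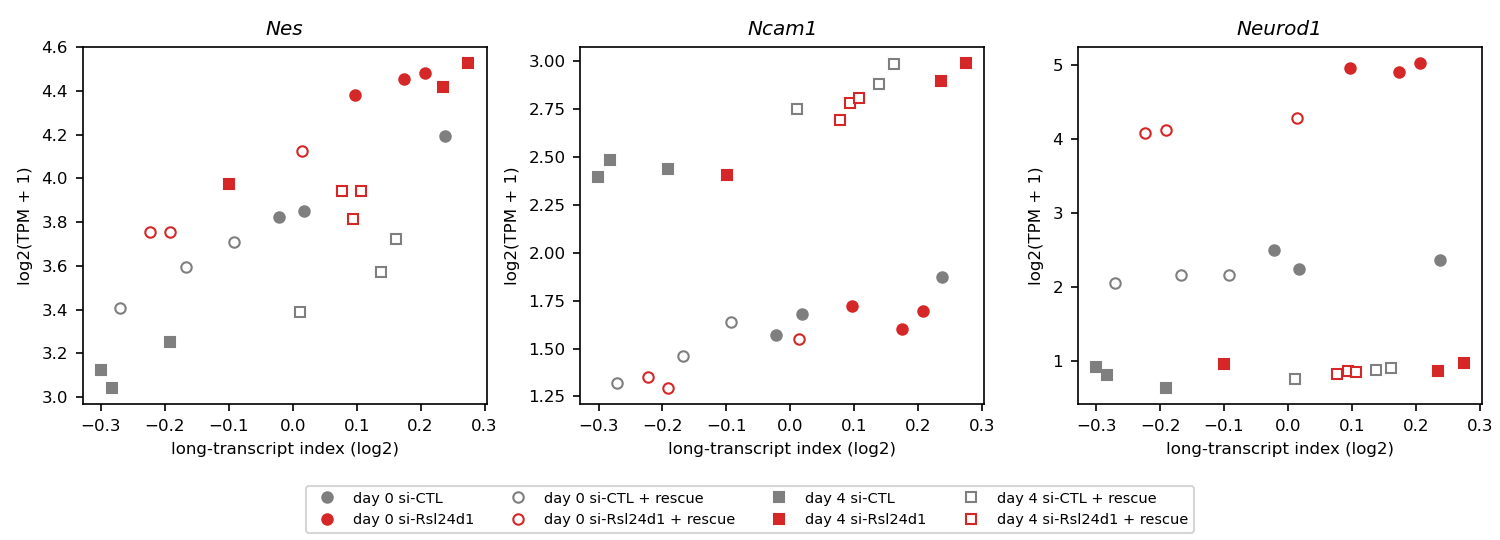
Each point is 1 library. The horizontal axis is the long-transcript index (log2 units), the vertical axis the log2(TPM + 1) of Nes, Ncam1 or Neurod1, circles are day 0 and squares day 4, grey is si-CTL and red si-Rsl24d1, and open symbols are rescued cells. Nes and Ncam1 tend to lie higher in libraries with a higher index, whereas Neurod1 is highest in the day 0 si-Rsl24d1 libraries, with and without rescue.

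The members differed widely in level. In day 0 si-CTL cells Tubb3 stood at 65.8 TPM, Nes at 14.6, Gbx2 at 13.5, Neurod1 at 4.19, Ncam1 at 2.28, Sox1 at 1.00 and Hes5 at 0.43 TPM (means of 3 libraries). Across the 8 groups, the means of Tubb3, Neurod1 and Gbx2 were higher in all 4 day 0 groups than in all 4 day 4 groups, and Sox1 and Ncam1 showed the opposite order. Neurod1 ranked day 0 si-Rsl24d1 first, then rescued day 0 si-Rsl24d1, day 0 si-CTL and rescued day 0 si-CTL, none of which overlapped with its neighbour, while among the day 4 groups the si-CTL groups and the rescued si-Rsl24d1 group overlapped. Among the Gbx2 values the day 4 groups overlapped with one another, as did the 2 day 0 si-CTL groups. Hes5 was the least abundant member, and its 2 day 0 si-Rsl24d1 groups stood above the other groups, among which all neighbours in rank overlapped. The highest 5 groups of Nes formed a chain of overlaps, from day 0 si-Rsl24d1 (mean log2(TPM + 1) of 4.44) to rescued day 0 si-Rsl24d1 (3.88).

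**Figure D2:**
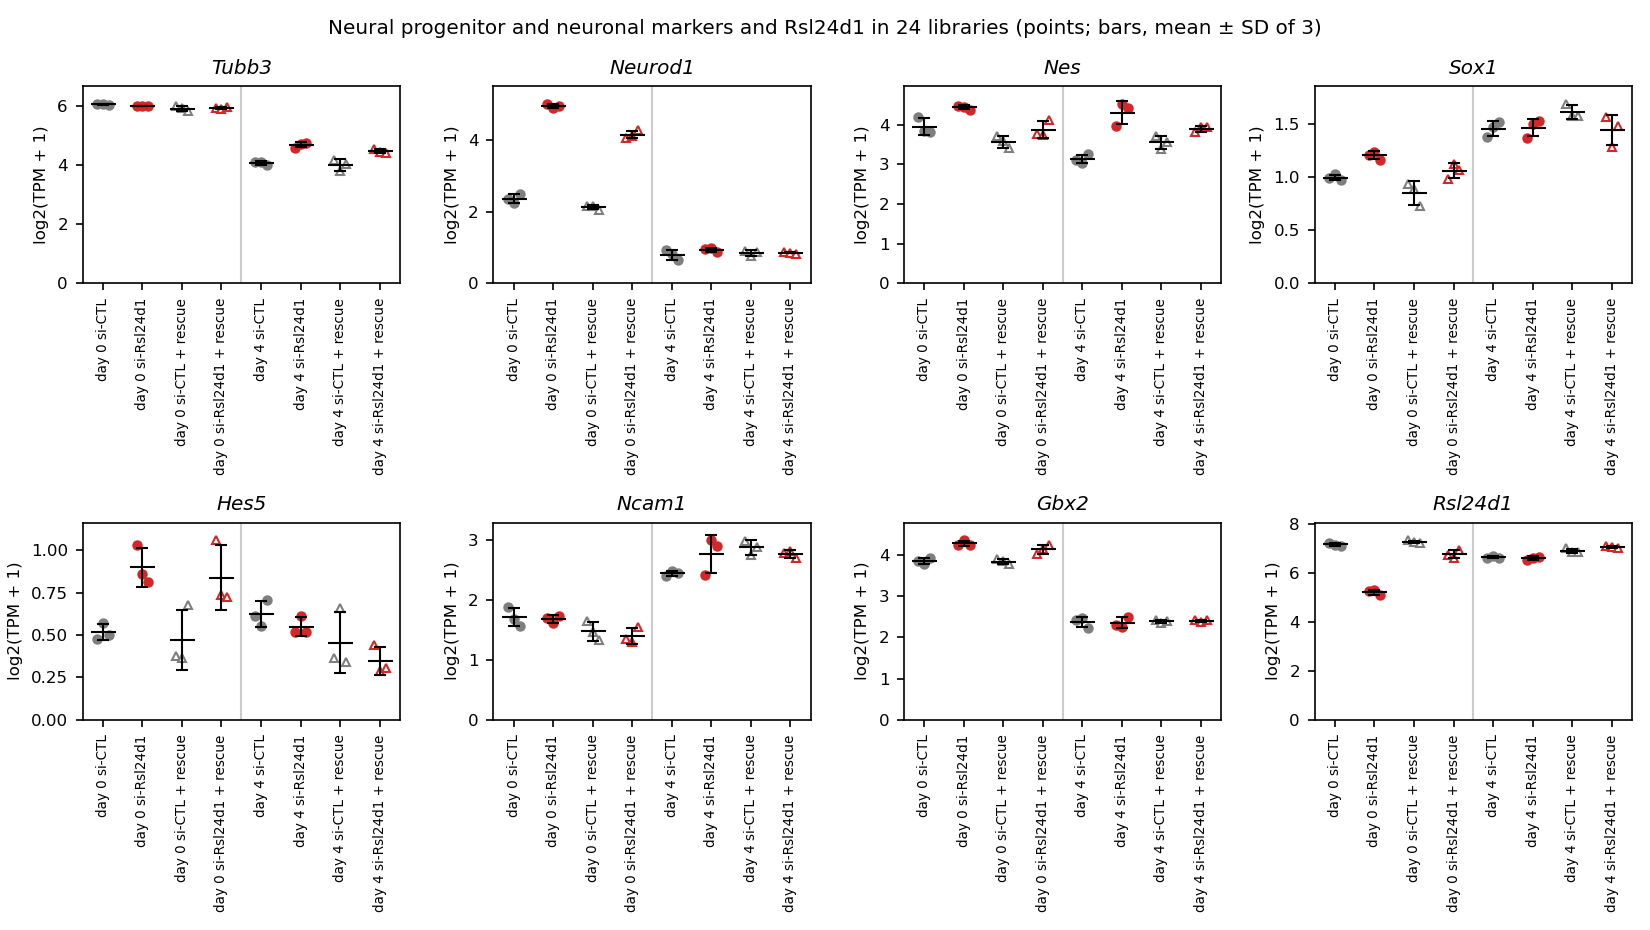
Values of the 7 members and of Rsl24d1 in 24 libraries, as log2(TPM + 1) on axes that start at 0, with 3 libraries per group as points (open triangles with rescue) and the mean ± SD as bars. The grey line parts day 0 from day 4. Tubb3, Neurod1 and Gbx2 are lower at day 4, Ncam1 and Sox1 higher, and Neurod1 is highest in day 0 si-Rsl24d1 cells.

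In unrescued si-CTL cells Tubb3, Neurod1 and Gbx2 were lower at day 4 of RA than at day 0, while the progenitor marker Sox1 and the adhesion gene Ncam1 had higher values at day 4. Day 4 and day 0 also differ in the days in culture and, by the treatment labels and the study's methods, in LIF, so RA cannot be told apart from these in any comparison of the days. A gene was called when limma gave a Benjamini-Hochberg adjusted p below 0.01 over 16447 tested genes and a change over 1.8-fold. This fold was taken in TPM + 1, as 0.848 on the log2 scale. The added 1 makes it smaller than the fold in TPM, most of all for low genes. All 7 members passed the filter on low values. By this rule 3 of the 7 members were called, all lower at day 4, against 15.0% of all tested genes in either direction. By adjusted p alone 6 of 7 passed, against 60.9% of tested genes. Tubb3 was at 66.4, 65.7 and 65.3 TPM at day 0 and at 16.1, 16.3 and 14.9 TPM at day 4, a difference in log2(TPM + 1) of -1.99 (SE 0.07, adjusted p = 6.4e-15). Every day 4 library lies far below every day 0 library. In such bulk samples fewer cells of a type cannot be told apart from less RNA per cell.

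Gbx2 was at 13.4, 12.8 and 14.3 TPM at day 0 and at 4.37, 4.51 and 3.71 TPM at day 4, a difference of -1.48 (SE 0.07, adjusted p = 9.0e-13). Neurod1 was at 4.15, 3.74 and 4.67 TPM at day 0 and at 0.90, 0.76 and 0.56 TPM at day 4, a difference of -1.58 (SE 0.08, adjusted p = 1.1e-12). Neither gene had overlapping groups, and at day 4 Neurod1 was under 1 TPM in every library of all 4 groups.

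Sox1 was at 0.99, 1.04 and 0.96 TPM at day 0 and at 1.61, 1.77 and 1.87 TPM at day 4, and its difference of 0.46 (SE 0.08, adjusted p = 2.4e-05) passed the adjusted p without reaching the fold. Ncam1 was at 2.66, 2.20 and 1.97 TPM at day 0 and at 4.25, 4.58 and 4.41 TPM at day 4, with a difference of 0.73 (SE 0.12, adjusted p = 2.5e-05). It was not called, although its mean TPM at day 4 was 1.94 times that at day 0. Both genes had all day 4 libraries above all day 0 libraries. With the long-transcript index as a covariate the difference of Ncam1 was 1.15 and past the fold.

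Nes was at 17.3, 13.4 and 13.2 TPM at day 0 and at 7.71, 7.23 and 8.52 TPM at day 4, a difference of -0.82 (SE 0.13, adjusted p = 2.1e-05) that lay just short of the fold in TPM + 1. Its mean TPM at day 4 was 53.4% of that at day 0. The index was 0.08 and -0.26 in these 2 groups, and with it as a covariate the difference of Nes was -0.31. Hes5 was at 0.39, 0.49 and 0.42 TPM at day 0 and at 0.53, 0.47 and 0.63 TPM at day 4, and the groups overlapped (difference 0.11, 95% interval -0.11 to 0.33, adjusted p = 0.38).

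Tubb3, Neurod1 and Gbx2 were called lower in the other 3 RA comparisons too, and Ncam1 was called higher in them. The 4 RA comparisons share no libraries. In unrescued si-Rsl24d1 cells 4 of 7 members were called, against 14.1% of tested genes. They were Neurod1 (-4.03, SE 0.08, adjusted p = 1.4e-18), Gbx2 (-1.93, SE 0.07, adjusted p = 1.6e-14) and Tubb3 (-1.30, SE 0.07, adjusted p = 3.4e-12), all lower, and Ncam1 (1.09, SE 0.12, adjusted p = 1.7e-07), higher. Hes5 had -0.35 (adjusted p = 6.6e-03), Sox1 0.26 (adjusted p = 5.5e-03) and Nes -0.13 (adjusted p = 0.39), none of which reached the fold in TPM + 1. In TPM the day 4 mean of Hes5 was 53.2% of its day 0 mean.

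With rescue, 4 of 7 members were called in si-CTL cells, against 15.6% of tested genes, and 4 of 7 in si-Rsl24d1 cells, against 14.9%. In both the called members were Tubb3, Neurod1 and Gbx2 as lower and Ncam1 as higher. In rescued si-CTL cells the differences were -1.91 for Tubb3, -1.29 for Neurod1 and -1.45 for Gbx2, and the mean of Ncam1 went from 1.79 to 6.33 TPM (adjusted p = 4.5e-09). In rescued si-Rsl24d1 cells they were -1.47 for Tubb3, -3.31 for Neurod1, -1.74 for Gbx2 and 1.36 for Ncam1. Sox1 had differences of 0.76 and 0.39 in these comparisons, and Hes5 had -0.50 (adjusted p = 3.7e-04) in rescued si-Rsl24d1 cells. These did not reach the fold in TPM + 1. In TPM, Sox1 in rescued si-CTL cells was at 2.56 times its day 0 mean. Hes5 in rescued si-Rsl24d1 cells was at 33.8% of its day 0 mean. The groups overlapped for Nes in both comparisons and for Hes5 in rescued si-CTL cells.

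**Figure D3:**
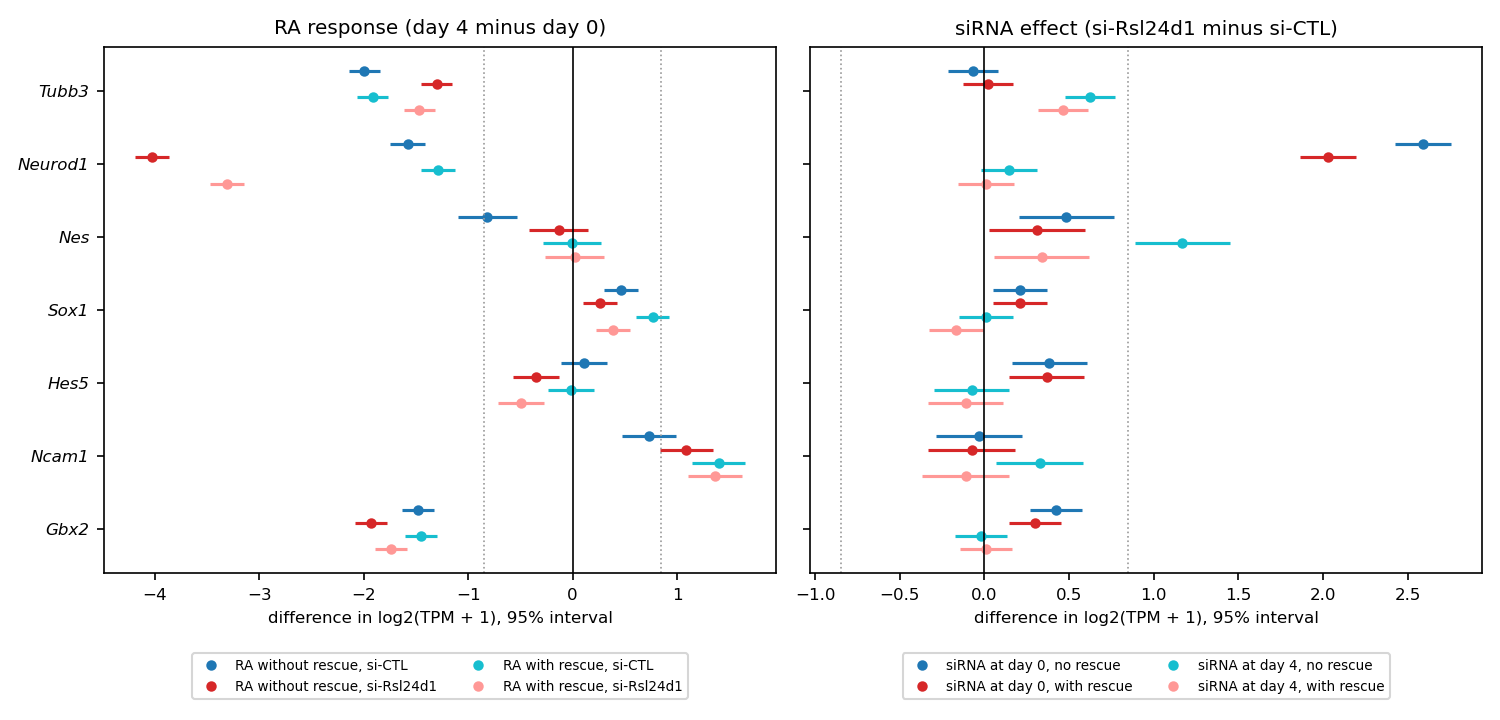
Differences in log2(TPM + 1) with 95% intervals for the 7 members, for RA (left, day 4 minus day 0, in 4 pairs of groups) and for the siRNA (right, si-Rsl24d1 minus si-CTL). Dotted lines mark the 1.8-fold threshold (0.848). The Neurod1 values of 2.59 and 2.03 at day 0 stand apart from those of the other members, and Nes at day 4 without rescue is at 1.17.

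At day 0 Neurod1 rose in si-Rsl24d1 cells, and it was the only member called by both the adjusted p and the fold. Neurod1 was at 4.15, 3.74 and 4.67 TPM in si-CTL cells and at 31.5, 29.0 and 30.2 TPM in si-Rsl24d1 cells. All 3 depleted libraries lie far above the controls, the mean TPM was 7.22 times higher, and the difference in log2(TPM + 1) was 2.59 (SE 0.08, 95% interval 2.43 to 2.76, adjusted p = 3.1e-15). The call covers 1 of 7 members, against 4.18% of tested genes. By adjusted p alone 4 of 7 members passed, against 30.4% of tested genes.

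The other 3 that passed were the LIF target and boundary factor Gbx2, the Notch target Hes5 and the progenitor filament Nes. Gbx2 was at 18.1, 19.5 and 17.9 TPM in depleted cells against 13.4, 12.8 and 14.3 TPM in controls (difference 0.42, SE 0.07, adjusted p = 9.5e-05). Hes5 was at 1.04, 0.81 and 0.75 TPM against 0.39, 0.49 and 0.42 TPM (difference 0.38, SE 0.11, adjusted p = 6.3e-03), so its TPM was 2.02 times the control while the added 1 in the log keeps the difference small. Nes was at 21.4, 21.0 and 19.9 TPM against 17.3, 13.4 and 13.2 TPM (difference 0.48, SE 0.13, adjusted p = 6.6e-03). With the index as a covariate the difference of Nes was 0.36 (adjusted p = 1.2e-06). In these 3 genes every depleted library lies above every control library.

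Sox1 was at 1.32, 1.37 and 1.25 TPM in depleted cells against 0.99, 1.04 and 0.96 TPM, a difference of 0.21 (SE 0.08, adjusted p = 0.035) that missed the threshold. Tubb3 was at 62.6 to 63.0 TPM against 65.3 to 66.4 TPM (difference -0.07, 95% interval -0.22 to 0.08), which is a small gap without overlap, and Ncam1 at 2.04 to 2.30 TPM against 1.97 to 2.66 TPM (difference -0.03, 95% interval -0.29 to 0.22).

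Other proneural and Notch genes were read beside Neurod1, in a comparison that called 4.18% of all tested genes. Of the 23 listed proneural and neuronal transcription factors 6 were tested, and 3 of them were called higher in depleted day 0 cells with a list median of 0.61 against -0.01 over all tested genes. They were Hes6 (1.70, SE 0.06, adjusted p = 4.9e-14), a Hes family member that promotes neuronal differentiation, Insm1 (1.59, SE 0.08, adjusted p = 2.8e-12), a zinc finger factor of neuronal and endocrine precursors, and Pou4f1 (1.18), a factor of sensory neurons. Of 21 tested Notch pathway genes 6 were called higher, led by the ligand Dll1 (2.29, SE 0.12, adjusted p = 1.0e-11), the ligand Jag2 (1.22) and the feedback regulator Nrarp (1.19), with a list median of 0.14. Of 25 tested neuronal cytoskeleton, RNA-binding and synapse genes 1 was called, the RNA-binding protein gene Celf5 (1.22). Of 16 tested LIF, Stat3 and pluripotency genes 3 were called, all lower, namely Nr0b1 (-1.14), Esrrb (-1.09) and Zfp42 (-0.96), with a list median of -0.54. Of 12 tested neural plate factors 2 were called higher, Irx3 (1.30) and Pou3f1 (0.92), and 1 lower, Hesx1 (-0.96). Of 12 tested neural progenitor genes 1 was called, Fabp7 (0.93), and of 10 tested midbrain-hindbrain boundary genes, the group to which Gbx2 belongs by its embryonic role, 1 was called lower, the growth factor gene Fgf17 (-1.48). None of 11 tested primitive endoderm genes was called by limma here. Counts of 0 or 1 in a list give no result beyond the 4.18% of all tested genes. The lists were chosen with earlier results known, and the counts describe these genes only. With the index as a covariate, 5 pluripotency genes were called lower in place of 3, and the counts of proneural and Notch genes were 3 and 6 as before.

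**Figure D4:**
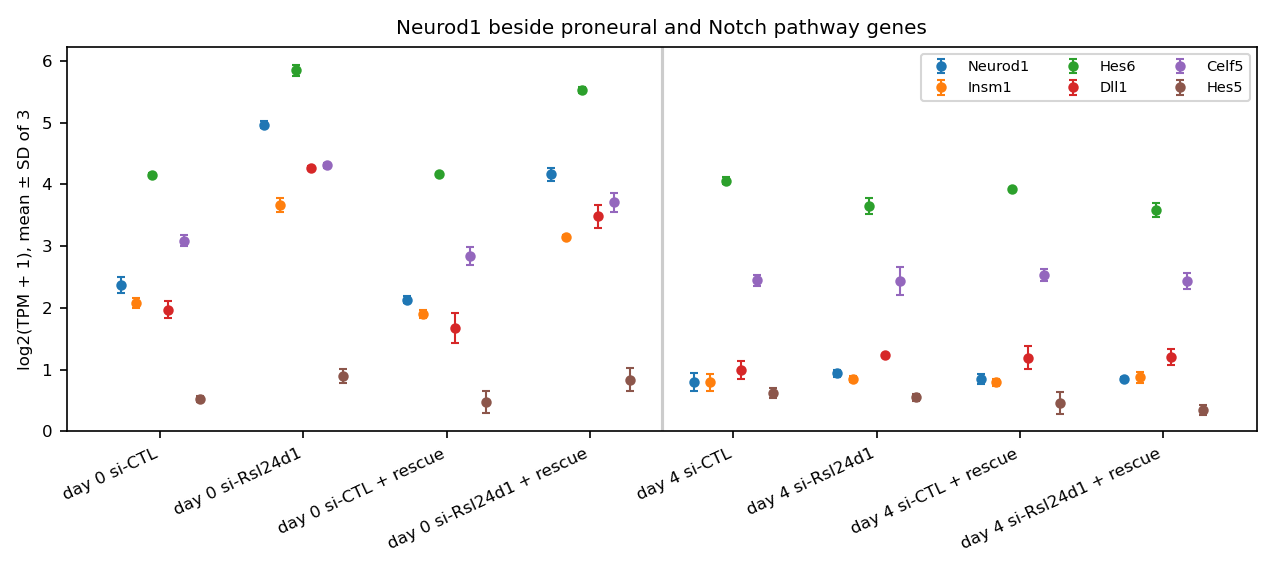
Mean ± SD of log2(TPM + 1) over 3 libraries for Neurod1, Insm1, Hes6, Dll1, Celf5 and Hes5 in the 8 groups, day 0 left of the line and day 4 right of it. All 6 have their highest mean in day 0 si-Rsl24d1 cells and the next highest in rescued day 0 si-Rsl24d1 cells. All but Hes5 were called higher in unrescued day 0 si-Rsl24d1 cells, so their high means in that group follow from the choice of genes. Of the tested genes of these lists, 3 of 6 proneural factors and 15 of 21 Notch genes were not called in that comparison. At day 4 Neurod1, Insm1 and Dll1 lie between 0.79 and 1.23.

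At day 4, si-Rsl24d1 cells without rescue had higher Nes than si-CTL cells, with 14.7, 22.1 and 20.4 TPM against 7.71, 7.23 and 8.52 TPM. The groups do not overlap, although replicate 1 of the depleted group lies well below the other two, and the difference was 1.17 (SE 0.13, 95% interval 0.89 to 1.45, adjusted p = 2.4e-06). Nes was the 1 member of 7 called, against 1.63% of tested genes. Within groups Nes correlated with the long-transcript index, which differed between these groups as given above. The index comes from the same libraries, so its part and that of the siRNA cannot be told apart here. With the index as a covariate Nes was at 0.57 (adjusted p = 6.4e-06) and was no longer called. In that fit 137 genes were called in place of 268, and the part of transcript length in the result was not otherwise tested.

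Tubb3 also had higher values in depleted day 4 cells, with 23.2, 25.5 and 25.9 TPM against 16.1, 16.3 and 14.9 TPM. The groups were apart, and the difference of 0.62 (SE 0.07, adjusted p = 1.9e-06) passed the adjusted p but not the fold, which makes 2 of 7 members by adjusted p alone against 30.9% of tested genes. The median of all tested genes in this comparison was 0.13, and the difference of Tubb3 was 0.45 with the index as a covariate. Ncam1 was at 4.30, 6.93 and 6.45 TPM against 4.25, 4.58 and 4.41 TPM, with overlapping groups (difference 0.33, adjusted p = 0.035). It ranged from 0.21 to 0.51 with 1 library left out, and its sign turned with the index as a covariate (-0.17, adjusted p = 0.24). Neurod1 was at 0.95, 0.97 and 0.84 TPM against 0.90, 0.76 and 0.56 TPM (difference 0.15, 95% interval -0.02 to 0.31). Sox1, Hes5 and Gbx2 had overlapping groups at day 4, with adjusted p of 0.93, 0.59 and 0.83.

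Genes of other lists were read beside Nes at day 4, in a comparison that called 1.63% of all tested genes. Of 12 tested neural progenitor and radial glia genes 3 were called higher in depleted cells, the zinc finger gene Plagl1 (2.28), the growth factor gene Ptn (1.83) and N-cadherin, Cdh2 (1.52), with a list median of 0.48 against 0.13 over all genes. Of 25 tested neuronal cytoskeleton and synapse genes 2 were called higher, the growth cone genes Gap43 (1.22) and Dpysl3 (1.12). Markers of other cell types moved in the same comparison. Of 11 tested primitive endoderm genes 6 were called higher, led by Lama1 (1.12), Col4a1 (1.10) and Cubn (1.09). The summed TPM of the 13 listed endoderm genes was 203 to 281 in depleted day 4 libraries and 117 to 133 in controls, and none of the 13 was at 0 in a whole group. With the index as a covariate 0 of the 11 were called by limma, with Lama1 at 0.67 (adjusted p = 1.1e-03), Col4a1 at 0.66 and Cubn at 0.75, whereas Plagl1 (1.99), Ptn (1.92), Cdh2 (1.06) and Gap43 (1.18) were still called and Dpysl3 (0.65) was not. Of 7 tested neural crest genes 2 were called higher, the mesenchymal factor Twist1 (1.51) and Ets1 (0.93), and the summed TPM of the 10 listed crest genes was 36.4 to 43.7 in depleted libraries and 19.6 to 21.2 in controls, with none at 0 in either group. With the index as a covariate Twist1 was still called (1.51) and Ets1 was not (0.48). The part of the endoderm and crest genes in the values of Nes and Tubb3 was not tested. Of the proneural, Notch, midbrain-hindbrain boundary and neural plate genes limma called 0 at day 4. With 1.63% of all tested genes called, that count is no result about these lists.

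Whether the effect of the siRNA differed between day 0 and day 4 was tested directly as an interaction without rescue. Neurod1 was called, with an effect at day 4 that was lower than at day 0 by -2.45 on the log2 scale (SE 0.11, adjusted p = 4.5e-12), which is 1 of 7 members against 5.61% of tested genes. The same contrast is the difference between the RA responses of depleted and control cells, so the fall of Neurod1 from day 0 to day 4 was larger by that amount in depleted cells. By adjusted p alone 4 of 7 members passed, against 30.9% of tested genes, namely also Tubb3 (0.69, SE 0.10, adjusted p = 1.8e-05), Nes (0.68, SE 0.19, adjusted p = 6.8e-03) and Gbx2 (-0.45, SE 0.10, adjusted p = 1.8e-03). For Hes5 the interaction was -0.46 (adjusted p = 0.018). With the index as a covariate that of Nes was 0.21 (adjusted p = 0.024).

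With rescue the rise of Neurod1 at day 0 was smaller but present. The targeted gene Rsl24d1 was not fully restored there, at 70.6% of its level in rescued si-CTL cells. Rescued si-Rsl24d1 cells had 15.9, 16.4 and 18.4 TPM of Neurod1 against 3.50, 3.48 and 3.18 TPM in rescued si-CTL cells, with groups far apart. The difference was 2.03 (SE 0.08, adjusted p = 5.3e-13), and Neurod1 was again the 1 member of 7 called, against 1.36% of tested genes. Of the other members, Gbx2 had 0.30 (SE 0.07, adjusted p = 5.5e-03), Hes5 0.37 (SE 0.11, adjusted p = 0.016), Nes 0.31 (SE 0.13, adjusted p = 0.11) and Sox1 0.21 (SE 0.08, adjusted p = 0.058), each with all depleted libraries above all controls. By adjusted p alone 2 of 7 members passed, against 13.7% of tested genes. With the index as a covariate the difference of Nes was 0.25 (adjusted p = 1.9e-04).

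Compared directly with unrescued depleted cells, rescued depleted cells at day 0 had less Neurod1, with 15.9 to 18.4 TPM against 29.0 to 31.5 TPM. The groups did not overlap, and the difference of -0.80 (SE 0.08, adjusted p = 1.1e-06) passed the adjusted p but not the fold. Nes had -0.56 (SE 0.13, adjusted p = 4.7e-03), which was -0.12 (adjusted p = 0.16) with the index as a covariate, and Gbx2 -0.14 (adjusted p = 0.14). Ncam1 had -0.28 (adjusted p = 0.090), and 0.09 with that covariate. The limma fit called 0 of 7 members here, against 0.280% of tested genes, and 2 passed by adjusted p alone, against 15.3%. An unadjusted p under 0.05 was found for 3 members (Neurod1, Nes and Ncam1) and for 42.9% of tested genes, so that count is no result about the members. The interaction of siRNA and rescue at day 0 was -0.56 for Neurod1 (SE 0.11, adjusted p = 5.2e-03) and -0.17 for Nes (adjusted p = 0.73). For this interaction limma called 0 of 7 members against 0.128% of tested genes, and 1, Neurod1, passed by adjusted p alone, against 2.09%. Neurod1 was also the member with an unadjusted p under 0.05, against 17.6% of tested genes. With rescue, limma called 2 of 6 tested proneural factors and 1 of 21 tested Notch genes higher in depleted day 0 cells. Without rescue these counts were 3 and 6. The share of all tested genes called with rescue was 1.36%. Of the genes called beside Neurod1 at day 0, the 4 in the plot of proneural and Notch genes were called higher in depleted cells with rescue too. Dll1 was at 10.2 TPM against 2.23 TPM there, and the differences were 1.36 for Hes6, 1.25 for Insm1 and 0.87 for Celf5. Pou4f1 (0.54), Jag2 (0.80) and Nrarp (0.73) did not reach the fold.

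The remaining comparisons called none of the 7 members with limma. With rescue at day 4, si-Rsl24d1 against si-CTL cells called 0.730% of tested genes. By adjusted p alone 1 of 7 members passed, against 5.87% of tested genes, and 3 had an unadjusted p under 0.05, against 25.5%. Tubb3 was at 22.4, 20.9 and 20.3 TPM against 17.1, 12.8 and 15.5 TPM (difference 0.47, SE 0.07, adjusted p = 1.7e-04), and Nes at 13.1, 14.4 and 14.4 TPM against 12.2, 9.47 and 10.9 TPM (difference 0.34, adjusted p = 0.11). Sox1 had -0.17 (adjusted p = 0.17). With the index as a covariate the difference of Nes was 0.36 (adjusted p = 9.8e-06). In si-CTL cells at day 0, rescue called 0% of tested genes, and 2 genes passed by adjusted p alone among 6739 (41.0%) with an unadjusted p under 0.05. Of the 2 members with such a p, Neurod1 had -0.24 (adjusted p = 0.038) and Nes -0.39 (adjusted p = 0.043). Nes was at -0.0039 (adjusted p = 0.99) with the index as a covariate. At day 4, rescue called 0.0547% of tested genes in si-CTL cells and 0.0851% in si-Rsl24d1 cells, with 2 of 7 members under an unadjusted p of 0.05 in each, against 39.0% and 24.2% of tested genes. In si-CTL cells these were Nes (0.42, adjusted p = 0.027) and Ncam1 (0.43, adjusted p = 0.015), whose signs turned with the index as a covariate (-0.12 and -0.02). In si-Rsl24d1 cells these were Nes (-0.41, adjusted p = 0.060) and Tubb3 (-0.22, adjusted p = 0.049). Nes kept its sign there with the index as a covariate (-0.34, adjusted p = 2.6e-05).

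The other neural genes were counted in the RA comparison of unrescued si-CTL cells, where Tubb3, Neurod1 and Gbx2 were called lower. That comparison called 15.0% of all tested genes. Of 25 tested neuronal cytoskeleton, RNA-binding and synapse genes 14 were called lower, with a list median of -0.87 against -0.10 over all genes, led by Crmp1 (-2.63), a mediator of axon guidance, and the neurofilament genes Nefl (-2.39) and Nefh (-2.21). Of 12 tested neural plate and neural tube factors 3 were called higher and 3 lower, among them Hesx1 (1.05) and Pou3f1 (-2.01), and of 12 tested neural progenitor genes 1 was called higher, Ptn (2.73), and 2 lower. Of 16 tested LIF, Stat3 and pluripotency genes 7 were called lower, led by Klf5 (-1.86), Nr0b1 (-1.41) and Socs3 (-1.35), a direct Stat3 target. Gbx2 was lower in the same comparison. With the siRNA at day 0 without rescue Gbx2 was instead higher (0.42), while the median of this list was -0.54. A part of LIF or Stat3 in the values of Gbx2 was not tested. Rest, which encodes a repressor of neuronal genes in other cells, was called lower at day 4 of RA (-1.67, from 71.5 to 21.4 TPM). Of 21 tested Notch genes 6 were called lower, led by Dtx1 (-1.49), Notch4 (-1.20) and Mfng (-1.19), and of 10 tested midbrain-hindbrain genes Fgf17 (-2.52) and En2 (-0.90) were called lower and Irx2 (1.56) higher. Of 6 tested proneural factors Ebf1 (-1.51) and Insm1 (-1.28) were called lower. Of 11 tested primitive endoderm genes 5 were called higher, and the summed TPM of the 13 listed was 117 to 133 at day 4 against 72.1 to 87.5 at day 0. The part of other cell types in these values was not tested. With the index as a covariate 11 neuronal genes were called lower in place of 14. Of the pluripotency genes 5 were then called lower and 1 higher, in place of 7 lower. En2 was no longer called, and 6 endoderm genes were called higher in place of 5. The counts of Notch and proneural genes stayed at 6 and 2. Relatives of the members by sequence were read as well. Tubb5, the most abundant of the beta-tubulins listed, was at 1143 TPM at day 0 and 1059 TPM at day 4 (difference -0.11, adjusted p = 0.074), whereas Tubb4a was called lower with Tubb3 (-1.22). Sox2, a paralog of Sox1, was at 282 and 170 TPM (-0.72, adjusted p = 3.4e-10, short of the fold) while Sox1 had higher values, and Hes1, a paralog of Hes5, was at 21.0 and 20.2 TPM (-0.05, adjusted p = 0.36).

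**Figure D5:**
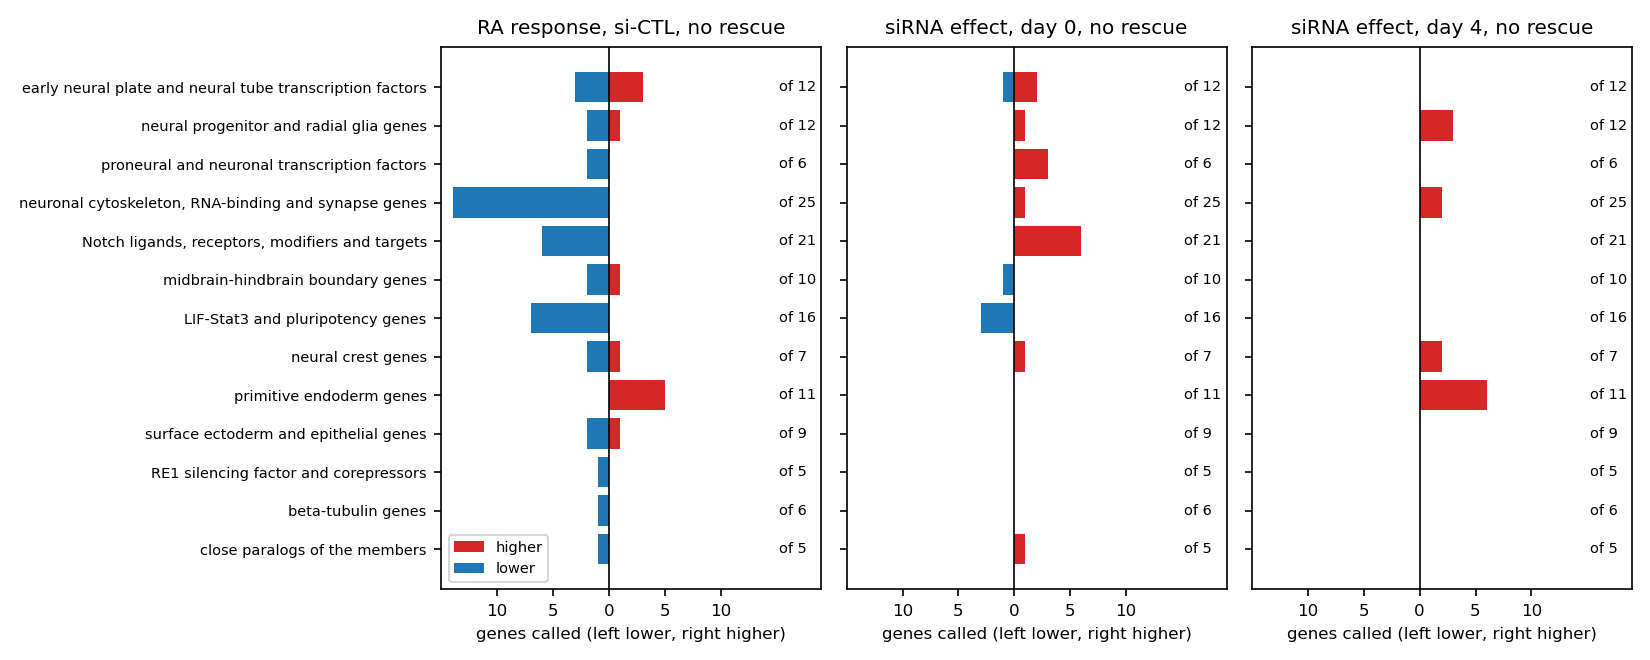
Genes called in 13 lists for RA in si-CTL cells (left), the siRNA at day 0 (middle) and the siRNA at day 4 (right), all without rescue, with bars to the left for lower, to the right for higher and the number tested beside them. The longest bar is that of neuronal cytoskeleton, RNA-binding and synapse genes, 14 of 25 lower with RA, and the siRNA at day 0 calls 3 of 6 proneural factors and 6 of 21 Notch genes higher. From left to right, 15.0%, 4.18% and 1.63% of all tested genes were called.

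The genes whose pattern over the 24 libraries was most like that of each member were found by Pearson correlation of log2(TPM + 1), a description over libraries that share groups. Neurod1 was closest to Slc4a11 (r = 1.00), Insm1 (0.99) and Fosl1 (0.99). Tubb3 was closest to Egr1, Etv4 and Spop (r = 0.99 each), and Gbx2 to Cltb, Vrtn and Zscan10 (0.99 each). Sox1 was closest to Epb41l3, Snx25 and Car12 (0.97 each), and Ncam1 to Med12l, Ostm1 and Osbpl9 (0.99 each). Hes5 had no gene above r = 0.83, which was reached by Bhlha15, Aaas and Nt5c. Nes was closest to Peg10 (0.97), Bcor (0.97) and Robo1 (0.96), and there the likeness held within groups too (r = 0.94, 0.90 and 0.94). That of Ncam1 to Med12l, Ostm1 and Osbpl9 also held within groups (0.86, 0.84 and 0.85), whereas that of Neurod1 and Insm1 within groups was 0.10. Nes and Ncam1 correlated with the long-transcript index within groups, and its part in their likeness to these genes was not tested. Between members, r within groups was 0.88 for Nes and Ncam1 and 0.46 for Tubb3 and Neurod1, while over all libraries it was -0.07 and 0.81.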

How the data were processed

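RNA-seq was measured in 24 libraries of CGR8 ESCs, grouped by their deposited titles. The authors obtained transcript abundances with Salmon and collapsed them to genes, and the deposited values are log2(TPM + 1). TPM sum to 1000000 per library, so depth is unknown and no count model was used. The submitters' processing notes name STAR 2.7.8a, Salmon 1.4.0 and a human build. By the labels the kit was poly-A and the medium DMEM, by the methods total-RNA and GMEM, with a mouse build, and both name serum. The labels give collection at both 48 h and 72 h, and the sources differ on LIF during RA and on the vector of cells without doxycycline. These conflicts were not settled.

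The 16447 genes whose log2(TPM + 1) averaged 0.5 or more were fitted with limma 3.58.1 in R 4.3.3 (8 group means, intensity trend, two-sided, Benjamini-Hochberg adjustment), with the study's fold and p thresholds. The script was tested on simulated data. Replicates are described as independent, and p-values measure the spread between these libraries. The members and gene lists were chosen with earlier results of these data known. Named genes are the members, Rsl24d1, relatives of the members, at most 3 called genes per list and direction, and the 3 most similar genes. Dcx, Stmn2 and the list genes without a call were named after their values were seen. A planned permutation test for members below the filter had no member to apply to. No libraries were duplicates (highest correlation 0.991). The polysialyltransferases of Ncam1 were below the filter.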

Additional observations from a re-analysis of the deposited data

Results flagged for a closer look

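Interactions of members that passed an adjusted p of 0.01 show effects of the siRNA that differ between days or between rescued and unrescued cells. Between day 4 and day 0 without rescue, the effect of si-Rsl24d1 differed by -2.45 on the log2 scale for Neurod1, by 0.69 for Tubb3, by 0.68 for Nes and by -0.45 for Gbx2. Between rescued and unrescued cells at day 0 it differed by -0.56 for Neurod1. All were tested as interaction terms of the limma fit, and only that of Neurod1 between days also passed 1.8-fold. With the long-transcript index as a covariate the interaction of Nes with day was 0.21 (limma adjusted p = 0.024) and no longer passed. The median of the interaction with day over all tested genes was 0.14.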

How the results depend on the processing

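The 61 differences of single members given above kept their direction and call with 2 added to the TPM, without a filter, with median of ratios scaling, with only the groups compared and with a replicate block. Replicate numbers did not pair libraries, since deviations from group means correlated at -0.02 for same-numbered and 0.01 for other libraries and 1 of 24 libraries fitted its own number best. With the replicate block, 1 member was called at day 4 and the difference of Nes was 1.17, as without it. A filter at a mean of 1.5 left out Sox1 and Hes5. With 0.1 added to the TPM, 5 members were called for RA in unrescued si-CTL cells, against 23.1% of tested genes, with Nes at -0.89 and Ncam1 at 0.94. In rescued cells 5 were called in si-CTL (23.6% of genes), with Sox1 at 1.26, and 5 in si-Rsl24d1 (22.1%), with Hes5 at -1.27. Differences of the low genes Sox1 and Hes5 grew by over 1.5 times in every RA and day 0 siRNA comparison given, and no call changed in the siRNA, rescue and interaction comparisons. By adjusted p alone, members called were 6 there, 4 and 2 for the siRNA at day 0 and day 4 without rescue, 2 and 1 with rescue, 2 for rescue in depleted day 0 cells, 4 for the interaction with day and 1 for that with rescue, and the shares of all genes by that rule stand beside each comparison above. With the long-transcript index as a covariate, 0 members were called for the siRNA at day 4, Ncam1 there turned to -0.17, and for rescue in day 4 si-CTL cells Nes turned to -0.12 and Ncam1 to -0.017. Under it Ncam1 also turned to 0.088 for rescue in depleted day 0 cells.

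With each library left out once, there were 3 to 4 called members for RA in unrescued si-CTL cells, as Nes ranged from -0.88 to -0.70. It gave 0 to 1 for rescue in depleted day 0 cells, where Neurod1 ranged from -0.86 to -0.76 and was called without replicate 3 of the rescued group. It gave 1 to 2 for the interaction with day, where Nes ranged from 0.57 to 0.85 and was called without replicate 1 of the day 4 si-Rsl24d1 group. Without that library Nes in the RA comparison of depleted cells was 0.031 (lowest value -0.25), and Ncam1 at day 4 was 0.51, against 0.21 without replicate 2 of that group. Ncam1 at day 0 ranged from -0.10 to 0.051. Among other differences that were not called, Neurod1 at day 4 was 0.068 without si-CTL replicate 3, Nes at day 0 with rescue 0.19 without si-Rsl24d1 replicate 3, Sox1 at day 4 with rescue -0.089 without si-Rsl24d1 replicate 2, Gbx2 for rescue in depleted day 0 cells -0.087 without rescued replicate 1, Hes5 for RA in si-CTL cells 0.066 without day 4 replicate 3, and Nes for the interaction with rescue between -0.30 and -0.10. Genes called for rescue in depleted day 0 cells were 83 without replicate 3 of the rescued group. At day 4 they ranged from 1 to 29 in si-CTL cells, with each of the 6 libraries moving the count by more than 1.5 times, and in si-Rsl24d1 cells they were 22 and 9 without replicates 1 and 2 of the unrescued group. Neurod1 at day 0 stayed between 2.53 and 2.66. TPM keep no read counts, so values under 1 TPM, such as those of Hes5, have an unknown counting error.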
